A study of Mus musculus with 2 samples.

Results

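Vomeronasal receptor genes were read for the methylation and hydroxymethylation of both DNA strands in mouse embryonic stem cells, a cell type in which these receptors have no known role. The members were all autosomal protein-coding genes of GENCODE vM21 whose symbol starts with Vmn1r or Vmn2r. There were 329 such genes among 20807 autosomal protein-coding genes, 208 of them Vmn1r and 121 Vmn2r, and they lie on 11 autosomes. A second class was formed by the 187 gaps, each under 50 kb, between neighbouring receptor genes. The genes hold 23048 CpG sites of the mm10 assembly and the gaps 27591, out of 20383623 on the autosomes. In replicate 1, 12647 sites of the genes and 9757 of the gaps were covered, and in replicate 2 there were 4498 and 3238. The 2 X-linked receptor genes were not used, and 1 symbol, Vmn1r216, names 2 genes.

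The vomeronasal organ is a chemosensory organ of the nose that detects pheromones and other social odours. V1R receptors, encoded by the Vmn1r genes, couple to the G protein alpha subunit Gnai2 in the apical layer of its epithelium and have an uninterrupted coding region. V2R receptors, encoded by the Vmn2r genes, couple to Gnao1 in the basal layer, carry a long extracellular domain and have a coding region split by introns. Both families arose by repeated local duplication, so that many members sit side by side and resemble each other. In the cytosines of a CpG site, methylation (mC) is laid down by DNA methyltransferases and oxidized to hydroxymethylcytosine (hmC) by TET enzymes, and a site that has just been replicated carries mC on the old strand only until the new strand is methylated.

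SCoTCH-seq reads both strands of a fragment in a single read pair and assigns each CpG site a CpG state, with the plus strand first (C, unmodified; M, mC; H, hmC). It was run on DNA from 2 passages of E14 cells grown in serum/LIF, a line derived from a 129 strain, called replicate 1 and replicate 2 of 1 condition, with no genotype or treatment compared. The labels give 10% serum in the medium and the methods of the study another share, and which applies is not known. Replicate 1 carried 141159011 calls at autosomal sites and replicate 2 carried 31102023, with a mean depth of 10.56 and 6.37 calls per covered site. Levels are the calls of a state as a percentage of all calls of a class or gene, as called. MC and CM are summed as MC/CM (hemimethylation), and HC/CH and HM/MH likewise. No RNA was measured here.

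The receptor genes are poor in CpG sites. They hold 4.41 CpG sites per kb, against 10.0 in other protein-coding genes, 4.83 in the olfactory receptor (Olfr) genes and 5.95 in the gaps. The number of CpG dinucleotides was 0.126 of that expected from the C and G content of the receptor genes, against 0.216 in other protein-coding genes. RefSeq promoters (GRCm38.p6, 250 bases before to 50 after the transcription start) were matched by symbol for 297 of 328 receptor symbols, giving 298 promoters. They held a median of 1 CpG site (interquartile range 0 to 2), and 81.5% of them held 2 or fewer. For other protein-coding genes the median was 15 and 15.6% of 18876 promoters held 2 or fewer, and for the olfactory receptor genes the median was 1 and the share 85.8%. A single receptor promoter held 10 or more, that of Vmn2r29 with 23, and none of its sites was covered. The RefSeq start of Vmn2r29 lies outside the GENCODE gene, so this promoter does not stand at the start of the gene measured here. RefSeq starts can also lie inside the GENCODE gene, as they do for Vmn1r1, Vmn1r175 and Vmn2r60. The promoters of 5 genes that are described further on, and 2 windows of 100 bases, are printed from 5′ to 3′ on the strand of the gene (windows on the plus strand), with every CpG in capitals. They show how far apart the measured sites lie, and the windows contrast repeated sequence without a covered site with a deeply covered site.
Vmn1r1 promoter, chr1:182158049-182158348, minus strand: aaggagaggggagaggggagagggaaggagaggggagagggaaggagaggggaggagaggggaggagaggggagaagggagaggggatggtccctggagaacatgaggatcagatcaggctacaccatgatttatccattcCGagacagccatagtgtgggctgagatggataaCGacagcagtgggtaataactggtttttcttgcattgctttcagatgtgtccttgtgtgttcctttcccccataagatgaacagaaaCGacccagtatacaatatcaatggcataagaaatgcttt
Vmn1r175 promoter, chr7:23809151-23809450, minus strand: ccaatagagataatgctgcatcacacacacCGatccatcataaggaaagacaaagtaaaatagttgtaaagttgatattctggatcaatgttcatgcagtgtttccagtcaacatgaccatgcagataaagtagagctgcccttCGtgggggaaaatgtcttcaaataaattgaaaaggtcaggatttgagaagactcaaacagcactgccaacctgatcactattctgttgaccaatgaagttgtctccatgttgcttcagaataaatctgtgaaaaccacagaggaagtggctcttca
Vmn2r22 promoter, chr6:123650586-123650885, minus strand: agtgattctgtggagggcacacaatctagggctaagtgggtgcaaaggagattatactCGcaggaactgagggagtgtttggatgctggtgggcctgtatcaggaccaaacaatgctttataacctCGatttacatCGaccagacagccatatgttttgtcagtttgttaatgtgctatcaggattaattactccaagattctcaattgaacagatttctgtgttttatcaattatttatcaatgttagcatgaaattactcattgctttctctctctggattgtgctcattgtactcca
Vmn2r60 promoter, chr7:42116221-42116520, plus strand: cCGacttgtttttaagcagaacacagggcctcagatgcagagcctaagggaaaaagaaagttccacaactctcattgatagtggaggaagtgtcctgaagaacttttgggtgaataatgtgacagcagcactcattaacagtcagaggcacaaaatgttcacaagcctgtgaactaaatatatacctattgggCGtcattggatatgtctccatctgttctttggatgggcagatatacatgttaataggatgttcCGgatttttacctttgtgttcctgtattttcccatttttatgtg
Vmn2r82 promoter, chr10:79356341-79356640, plus strand: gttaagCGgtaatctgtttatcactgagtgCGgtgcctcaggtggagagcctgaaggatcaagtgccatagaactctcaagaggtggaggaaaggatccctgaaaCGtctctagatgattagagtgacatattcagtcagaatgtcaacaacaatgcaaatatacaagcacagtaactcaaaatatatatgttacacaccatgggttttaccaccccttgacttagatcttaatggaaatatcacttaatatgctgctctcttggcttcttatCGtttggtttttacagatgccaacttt
Window in Vmn1r124, chr7:21259918-21260017: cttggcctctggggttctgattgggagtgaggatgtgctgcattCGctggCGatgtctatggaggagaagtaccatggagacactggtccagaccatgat
Window in Vmn1r235, chr17:21260691-21260790: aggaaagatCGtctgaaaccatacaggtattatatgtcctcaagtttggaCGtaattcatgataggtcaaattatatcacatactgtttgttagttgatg

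Among the promoters printed, the CpG sites differed most clearly in state at Vmn1r175. In its promoter, the site at base 31 had 20 MM calls and 2 CC calls out of 25 in replicate 1, and 5 MM and 0 CC out of 7 in replicate 2. The site at base 145 of the same promoter had 13 CC and 3 MM calls out of 16 in replicate 1, and 5 CC calls out of 5 in replicate 2. The site farther from the RefSeq start was thus mostly methylated and the nearer site mostly unmodified, in both replicates. Both sites lie inside the GENCODE gene, whose start is nearer to the methylated site. In the Vmn1r1 promoter, the site at base 142 gave 21 calls in replicate 1, of which 8 were CC, 2 MM, 3 MC/CM, 1 HC/CH and 7 HM/MH, and it was not covered in replicate 2. The site at base 175 gave 11 CC and 8 MM calls out of 23 in replicate 1 and 4 CC and 1 MM calls out of 6 in replicate 2, and the site at base 262 gave 7 CC calls out of 7. The site at base 257 of the Vmn2r60 promoter gave 18 MM, 6 MC/CM and 1 HM/MH calls out of 25 in replicate 1 and no CC call. At base 137 of the Vmn2r22 promoter, 11 of 23 calls were CC and 9 were MM in replicate 1. Of the 4 CpG sites of the Vmn2r82 promoter 3 were covered in replicate 1, each with 9 calls or fewer. The window in Vmn1r124 lies in the coding exon, and with C read as T it occurs 25 times in the assembly. Neither of its CpG sites was covered. The window in Vmn1r235 occurs only at that place in the assembly and overlaps an exon, outside the coding region, by 26 bases. The assembly is of another mouse strain than the cells, and copies in the cells were not counted. Its site at base 51 gave 54 calls in replicate 1 (9 CC, 25 MM, 19 MC/CM) and 20 in replicate 2 (5 CC, 9 MM, 5 MC/CM).

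Whether a receptor gene could be read at all went with how much of it is repeated elsewhere in the assembly. Of the CpG sites in receptor genes, 54.9% were covered in replicate 1 and 19.5% in replicate 2, against 68.5% and 25.5% in other protein-coding genes. A window of 100 bases around a site, with C read as T, occurred more than once on either strand for 26.0% of the sites in receptor genes, and for 41.1% in gaps, 8.60% in olfactory receptor genes and 4.59% in every 200th site of other genes. Sites with a window found at a single place were covered at 73.0% in replicate 1 and 26.3% in replicate 2, and those with a repeated window at 3.42% and 0.117%. On sites with a window found at a single place, other genes were covered at 71.4% and 26.7%, so that receptor genes were covered slightly more in replicate 1 and slightly less in replicate 2.

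In both replicates, 76 receptor genes had no covered site. Of these, 58 were Vmn1r and 18 Vmn2r genes, and 67 lie on chromosome 7, which holds 154 receptor genes. Their median share of sites with a repeated window was 94.3%, with a range from 0 to 100%, against a median of 5.45% in the 253 genes with a covered site. All 3 receptor genes of chromosome 4 and the only member on chromosome 18 were among them. Of the 48 genes with a repeated window at over 75% of their sites, 47 had no covered site in replicate 1 and 47 in replicate 2. Of the 79 genes with no repeated window, 1 had no covered site in replicate 1 and 3 had none in replicate 2, and the median covered share was 86.7% and 31.3%. In total 174 genes, 78 Vmn1r and 96 Vmn2r, had at least 50 calls in each replicate.

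**Figure D1:**
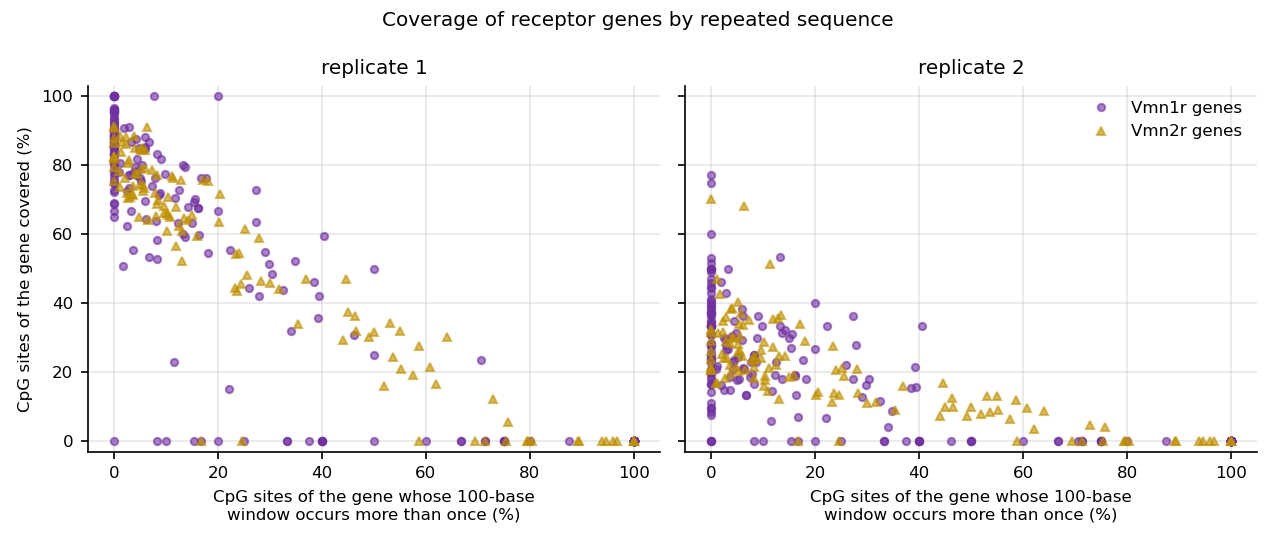
Each point is a receptor gene, circles for Vmn1r and triangles for Vmn2r. The x axis gives the share of its CpG sites whose 100-base window occurs more than once in the assembly, and the y axis the share of its CpG sites covered, in percent, for replicate 1 (left) and replicate 2 (right). Genes without repeated windows had a median of 86.7% of sites covered in replicate 1 and 31.3% in replicate 2, and genes with repeated windows at over 75% of sites lie at or near 0.

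At covered CpG sites, most calls were of methylation on both strands. MM took 58.0% of calls in the receptor genes of replicate 1 and 63.3% of those of replicate 2 (mean 60.7% ± 3.79, SD, n = 2), and CC took 19.2% and 15.5%. Hemimethylation took 17.2% and 18.3% (17.7% ± 0.803, SD, n = 2), less than CC in replicate 1 and more in replicate 2. HC/CH took 2.14% and 1.63%, HM/MH 3.08% and 1.19%, and HH 0.384% and 0.0239%. In other protein-coding genes, MM took 54.5% and 58.5%, MC/CM 12.9% and 14.05%, HC/CH 4.48% and 4.01% and HM/MH 4.11% and 2.64%. As called, and so with miscalls included, all states with hmC together came to 5.61% and 2.84% in receptor genes, and to 9.06% and 6.83% in other genes. The differences in MC/CM and HC/CH were larger than the spread between the replicates of either class. The difference in HM/MH was smaller than the SD between replicates in receptor genes (1.34) and larger than that in other genes (1.04), with receptor genes lower in each replicate. Mean depth at covered sites was 12.1 and 6.52 calls in receptor genes, and 10.397 and 6.38 in other genes.

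The methylated and unmethylated control DNA show the miscalls behind these levels. In methylated lambda DNA, MC/CM was called at 3.51% in replicate 1 and 6.43% in replicate 2, and HM/MH at 3.88% and 0.340%. HH was called there at 1.09% and 0.0351%. The HM/MH and HH levels of the receptor genes in replicate 1, 3.08% and 0.384%, were therefore below those called in lambda DNA. The total of 5.61% for all states with hmC in that replicate holds both. Lambda DNA was called MM at 91.0% in that replicate and receptor genes at 58.0%. The lambda levels are not scaled to this difference, so they are not the miscall levels of the receptor genes. In unmethylated pUC19 DNA, HC/CH took 0.0344% and 0.0859% of calls. After correction by the call rates that each replicate gave on synthetic duplexes of known state, the level of HC/CH was 1.46% and 1.48% in receptor genes and 3.99% and 3.99% in other genes. Corrected HM/MH was 0.239% and 0.845% in receptor genes and 1.48% and 2.29% in other genes, and corrected MC/CM was 16.6% and 17.2% in receptor genes and 12.1% and 12.8% in other genes. Corrected HH was 0 and 0.00879% in receptor genes, with negative solutions set to 0.

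**Figure D2:**
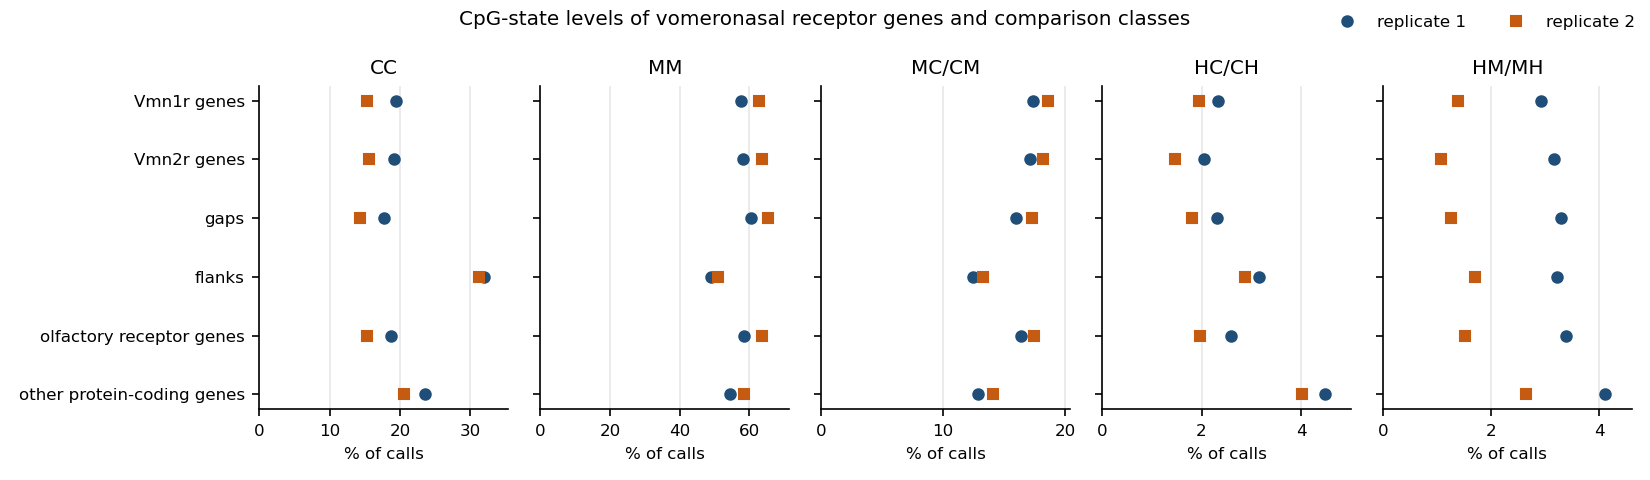
Levels of 5 CpG states (panels, percent of calls on the x axis) in the classes named at the left, with circles for replicate 1 and squares for replicate 2. Hemimethylation (MC/CM) lay between 16.0% and 18.6% in Vmn1r genes, Vmn2r genes and gaps and at 12.9% and 14.05% in other protein-coding genes, while HC/CH was at 2.33% or below in the former and above 4% in the latter.

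To ask whether the receptor genes differ from other protein-coding genes along the genome, levels were compared autosome by autosome, in each replicate apart. An autosome entered where both classes had at least 100 calls, which left 9 autosomes in replicate 1 and 8 in replicate 2. The signs of the differences were permuted exactly over autosomes, the test was two-sided, and p-values were adjusted by the Benjamini-Hochberg method over the 14 tests of a comparison. The autosomes of a replicate come from the same library, so they are not separate samples. Averaged over autosomes, MC/CM was 3.79 percentage points higher in receptor genes in replicate 1 (higher on 8 of 9 autosomes) and 4.22 points higher in replicate 2 (8 of 8), with an adjusted p of 0.0273 from the exact permutation test in both. MC/CM stayed higher but was not called against intergenic DNA (2.83 points, averaged over both replicates) or with the mean of per-site percentages (3.91 points). HM/MH was lower, with differences of -0.777 and -1.14 points (lower on 8 of 9 and 7 of 8 autosomes, exact permutation test, adjusted p = 0.0328 and 0.0365). With correction for miscalls the differences were -0.808 and -1.12 points and did not pass (exact permutation test, adjusted p = 0.0911 and 0.0521). HM/MH was also not called in any class of CpG density, against intergenic DNA, in coding exons, with per-site percentages or at sites with at least 10 calls. HC/CH differed by -1.63 and -1.78 points (lower on 8 of 9 and 7 of 8 autosomes), and did not pass (exact permutation test, adjusted p = 0.0625 and 0.0684). CC, MM and the covered share did not pass either. Mean depth was higher in receptor genes by 1.54 calls on 9 of 9 autosomes and by 0.161 calls on 8 of 8 (exact permutation test, adjusted p = 0.0273 in both replicates). The difference in depth was not called at sites with at least 10 calls, against intergenic DNA or in coding exons, and averaged over both replicates it was -0.452 calls at sites with over 10 CpG sites in the 1000 bases around them.

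Chromosome 1, with Vmn1r1 as its only receptor gene, went against the other autosomes in HC/CH and HM/MH in both replicates and in MC/CM in replicate 1. There HC/CH was 6.76% in replicate 1 and 5.88% in replicate 2, and HM/MH was 4.85% and 2.94%. MC/CM was 9.56% in replicate 1, below the 13.5% of other genes on the chromosome, and in replicate 2 it was 14.71% against 14.65%. On the other autosomes with at least 100 calls, HC/CH of the receptor genes ranged from 1.88% on chromosome 17 to 2.73% on chromosome 13 in replicate 1, and from 1.15% on chromosome 10 to 1.97% on chromosome 3 in replicate 2. Without chromosome 1, an alternative chosen after the data were seen, HC/CH was lower in the receptor genes, with average differences of -2.16 and -2.35 points on 8 of 8 and 7 of 7 autosomes, and the differences in CC were -4.83 and -6.42 points. Since the chromosome was left out for its HC/CH level, these are descriptions and no p-value is given. Without chromosome 7, which holds the most receptor genes, no state passed: the difference in MC/CM was 3.66 and 4.16 points and the smallest adjusted p of the exact permutation test was 0.0547, with 8 and 7 autosomes left.

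**Figure D3:**
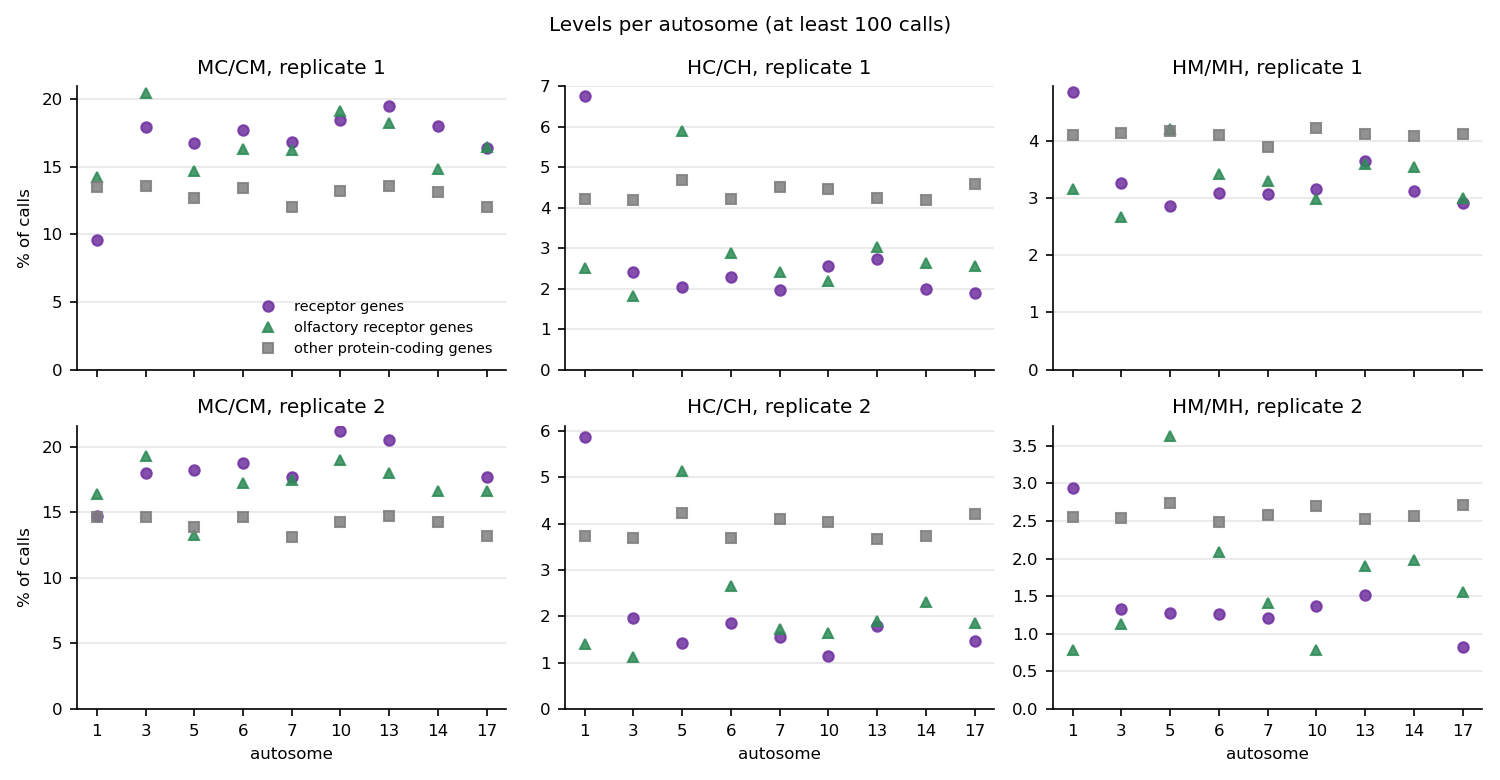
Levels (y axes, percent of calls) of MC/CM, HC/CH and HM/MH per autosome (x axes) for receptor genes (circles), olfactory receptor genes (triangles) and other protein-coding genes (squares), with replicate 1 above and replicate 2 below. On chromosome 1, where Vmn1r1 is the only receptor gene, HC/CH of the receptor class was 6.76% and 5.88%, above other genes, and on the other autosomes shown it was below them.

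Local CpG density moved with these differences. Of the CpG sites in receptor genes, 48.3% had 1 to 5 CpG sites in the 1000 bases around them, against 9.96% in other genes. The levels below pool the calls of a class, while the test averages differences over autosomes with each weighed alike. An autosome with a single receptor gene counts as much as chromosome 7 where it has enough calls. The p-values are therefore not tests of the pooled differences. Among those sparse sites, MC/CM was 18.1% and 19.1% in receptor genes and 16.9% and 18.1% in other genes, and the difference over autosomes did not pass (exact permutation test, adjusted p = 1 and 0.0547). HC/CH at sparse sites was 2.04% and 1.38% in receptor genes and 3.12% and 2.56% in other genes, and did not pass either (exact permutation test, adjusted p = 1 and 0.0547). Among sites with 6 to 10 CpG sites around them, HC/CH was 2.06% and 1.76% in receptor genes and 4.02% and 3.44% in other genes, and this difference passed the exact permutation test over autosomes in both replicates (adjusted p = 0.0438). MC/CM in that class was 16.4% and 17.7% in receptor genes and 14.9% and 16.2% in other genes, a difference that did not pass in either replicate (exact permutation test, adjusted p = 0.661 and 0.0547). Among sites with over 10, HC/CH was 3.33% and 3.65% in receptor genes and 5.08% and 4.66% in other genes and did not pass (exact permutation test, adjusted p = 0.191 and 0.146). MC/CM there was 12.3% and 12.6% in receptor genes and 10.7% and 11.98% in other genes. In both replicates and both kinds of genes, MC/CM was highest at sparse sites and lowest at sites with over 10 CpG sites around them.

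Gene by gene, receptor genes shared these differences unevenly. A gene was counted as higher or lower in a state where its exact 95% interval (Clopper-Pearson, counting error only) lay on the same side of the level of all autosomal protein-coding genes in both replicates, among genes with at least 50 calls in each. Receptor genes had a median of 670.5 calls in replicate 1 and of 121 in replicate 2. A gene with more calls is counted more readily. MC/CM was higher in 49 of 174 receptor genes (28.2%), against 11.7% of all 17911 genes tested. MC/CM was lower in none of them, against 28.2% of all genes. HC/CH was lower in 52 receptor genes (29.9%), against 12.2% of all genes, and higher in none, against 15.1%. Of the 52 genes, 42 were Vmn2r and 10 Vmn1r, from 96 and 78 tested. The share of lower genes was thus near that of all genes in the Vmn1r family and above it in the Vmn2r family. HM/MH was lower in 11 receptor genes (6.32%), near the 5.40% of all genes, and higher in none, against 4.48%. With a minimum of 20 calls, 4.89% of receptor genes were lower, against 5.09% of all genes. The 11 genes were all Vmn2r genes, which hold more CpG sites (a median of 106, against 24.5 in Vmn1r genes). CC was lower in 78 receptor genes (44.8%) and higher in 16 (9.20%), against 29.3% and 44.0% of all genes. MM was higher in 48 receptor genes (27.6%) and lower in 10 (5.75%), against 23.8% and 42.0% of all genes. Of 508 olfactory receptor genes tested, 54 were higher in MC/CM and 35 lower in HC/CH. Both shares lie below the 11.7% and 12.2% of all genes, although the pooled levels of this family were close to those of the vomeronasal receptor genes. Calls per gene were not matched between the families in these counts.

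Across the 174 receptor genes, MM ranged from 32.2% to 69.1% in replicate 1, with a median of 57.8%, and from 32.5% to 79.6% in replicate 2, with a median of 64.1%. MC/CM ranged from 9.56% to 23.7% in replicate 1 (median 17.5%) and from 5.88% to 31.7% in replicate 2 (median 18.4%). HC/CH ranged from 0.706% to 6.76% in replicate 1 (median 2.02%) and from 0 to 9.46% in replicate 2 (median 1.30%). The order of the genes was shared between the replicates for CC, with a Spearman correlation of 0.782 across genes, and for MM, with 0.662. It was less shared for MC/CM (0.409), HC/CH (0.241) and HM/MH (0.233). Genes are not independent replicates, and the depth of replicate 2 allows few calls with hmC per gene.

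Ranked by the lower of their levels in the 2 replicates, the genes with the highest MM were Vmn1r88, Vmn1r43, Vmn1r42, Vmn1r219 and Vmn2r22. Vmn1r88 (chr7:13159568-13185864, 296 CpG sites) had 69.1% MM in replicate 1 (95% interval 66.6 to 71.6%, 1312 calls) and 70.7% in replicate 2 (64.3 to 76.6%, 222 calls). Vmn1r42 and Vmn1r43 overlap on chromosome 6 and share sites, and their MM levels were 68.4% and 68.7% in replicate 1 and 70.0% and 71.5% in replicate 2. Vmn1r219 on chromosome 13 reached 67.5% and 73.3%. Vmn2r22, whose promoter is printed among the sequences, reached 66.7% and 75.2%, with a repeated window at 53.6% of its 250 CpG sites. These genes lie on chromosomes 6, 7 and 13, and their CC levels ranged from 9.07% to 11.8% in replicate 1.

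Ranked by the higher of their levels, the genes with the lowest MM were Vmn1r175, Vmn1r1, Vmn1r234, Vmn2r51 and Vmn1r235. Vmn1r175 (chr7:23807182-23810643, 15 CpG sites) had 35.5% MM and 51.0% CC in replicate 1 (251 calls at 9 sites) and 37.0% MM and 52.1% CC in replicate 2 (73 calls at 8 sites). Its mean depth was 27.9 calls per covered site in replicate 1, the highest among the 174 genes, whose median was 12.1, and 9.13 in replicate 2, where the median was 6.37. Vmn1r235 (chr17:21256411-21262881) was also deeply covered, with 27.2 calls per site in replicate 1 and 10.9 in replicate 2, the highest there, and had 45.2% and 48.1% MM. Vmn2r51 had 47.9% and 32.5% MM, and Vmn1r234, the neighbour of Vmn1r235, had 47.7% and 43.4%. The mean depth of the other 3 was near the median, with 10.8 and 6.54 calls per site in Vmn1r1, 11.6 and 5.93 in Vmn1r234 and 12.5 and 6.67 in Vmn2r51. Whether depth had a part in the low MM of these genes was not tested. Copies of these genes in the cells, whose strain differs from that of the assembly, were not counted.

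Vmn1r1 (chr1:182154704-182164486, minus strand, 70 CpG sites, of which none has a repeated window) combined low methylation with the highest HC/CH in replicate 1. MM was 32.2% in replicate 1 (95% interval 28.7 to 35.9%, 680 calls) and 37.1% in replicate 2 (29.8 to 44.8%, 170 calls). CC was 46.2% and 39.4%. HC/CH was 6.76% (4.99 to 8.92%) and 5.88% (2.86 to 10.55%), so that its interval lay above the level of all protein-coding genes, 4.48%, in replicate 1 but not above 4.01% in replicate 2. The other genes with the highest HC/CH by the lower of their levels were Vmn1r211, Vmn1r29, Vmn1r86 and Vmn2r90. Vmn1r211 on chromosome 13 had 6.16% and 6.94%, with 357 and 72 calls. Vmn1r29 on chromosome 6 had 6.16% and 5.36%, Vmn1r86 on chromosome 7 had 3.81% and 4.69%, and Vmn2r90 on chromosome 17 had 4.20% and 3.72%. Unlike Vmn1r1, these were mainly methylated, with MM from 52.5% to 64.7% in replicate 1.

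By the lower of its levels in the replicates, HM/MH was highest in Vmn1r191, Vmn1r83, Vmn1r30, Vmn1r80 and Vmn1r193, all of the Vmn1r family. Vmn1r191 on chromosome 13 had 5.35% in replicate 1 (3.45 to 7.85%, 449 calls) and 7.46% in replicate 2 (2.47 to 16.6%, 67 calls). On chromosome 7, Vmn1r83 had 4.93% in replicate 1 and 5.04% in replicate 2, and Vmn1r80 had 3.39% and 5.56%. Vmn1r30 had 4.81% and 3.53% and Vmn1r193 had 5.41% and 3.33%. In replicate 1, where 3.88% of calls in methylated lambda DNA were HM/MH, Vmn1r80 lay below that level and the other named genes above it. That level is not scaled to the methylation of these genes. In replicate 2 each of these levels rests on fewer than 10 HM/MH calls.

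The genes with the most sites covered in both replicates were Vmn2r7, Vmn2r60, Vmn2r82, Vmn2r18 and Vmn1r4. Vmn2r7 (chr3:64685044-64844765), the member with the most CpG sites, 952, had 117 of them covered in both replicates. Its MM was 64.0% and 70.8%, its MC/CM 17.8% and 16.2% and its HC/CH 2.01% and 1.30%, from 4822 and 846 calls. Vmn2r60 on chromosome 7 had HC/CH of 1.19% and 1.09% and MC/CM of 18.4% and 18.8%. Vmn2r82 on chromosome 10 had the highest MC/CM of the 5, 20.2% and 23.4%. Vmn1r4 on chromosome 6 was the least methylated of them, with 45.8% and 50.0% MM, and its HC/CH was 2.32% in replicate 1 and 5.70% in replicate 2. Apart from Vmn1r4 in replicate 2, HC/CH was below the level of all protein-coding genes in these 5 genes.

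The gaps between receptor genes resembled the genes in state but were covered less. In gaps, MM was 60.3% and 65.3%, MC/CM 16.0% and 17.3%, HC/CH 2.31% and 1.80% and HM/MH 3.29% and 1.26%. Of their CpG sites, 35.4% were covered in replicate 1 and 11.7% in replicate 2, and 65.0% of them are repeat-masked in the reference, against 44.8% in receptor genes. In replicate 1, with 8 autosomes, gaps were lower than receptor genes in MC/CM (-1.78 points), covered share (-18.2 points) and mean depth (-1.21 calls) (exact permutation test, adjusted p = 0.0365 for each). In replicate 2, with 6 autosomes, MC/CM differed by -1.57 points, the covered share by -7.61 points and the mean depth by 0.0318 calls, with the opposite sign, and none passed (exact permutation test, adjusted p = 0.219, 0.109 and 0.948, where the smallest unadjusted p is 0.0313). Differences in HC/CH of 0.340 and 0.360 points did not pass.

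Clusters of 3 or more receptor genes, 35 in number with 196 genes, were compared with the 200 kb outside each end. Inside clusters, genes and gaps together, CC was 18.4% and 14.9%, and in the flanks 31.9% and 31.2%. MM was 59.2% and 64.3% inside and 48.9% and 50.9% in the flanks, and MC/CM was 16.5% and 17.8% inside and 12.5% and 13.2% in the flanks. HC/CH was 2.28% and 1.78% inside and 3.15% and 2.88% in the flanks. With 6 autosomes the smallest unadjusted p is 0.0313, and no state passed after adjustment in either replicate. The differences in CC were -12.0 and -14.5 points (lower on 5 of 6 and 6 of 6 autosomes) and those in MM were 9.02 and 11.8 points (exact permutation test, adjusted p = 0.125 for each). Chromosome 13 carried much of both differences. There CC was 13.2% and 10.398% inside and 52.4% and 53.0% in the flanks, and MM was 61.7% and 67.5% inside and 32.96% and 33.4% in the flanks. Without chromosome 13, an alternative chosen after the data were seen and given as a description, CC differed by -6.56 and -8.91 points (lower on 4 of 5 and 5 of 5 autosomes) and MM by 5.08 and 7.35 points. Levels pooled over all clusters changed with distance from their edge, and were not recomputed without chromosome 13. CC was 22.9% and 21.3% in the first 50 kb outside, 30.4% and 29.6% in the next 50 kb, highest at 38.5% and 37.3% from 250 to 300 kb, and 29.8% and 27.7% from 350 to 400 kb, while HC/CH was 2.79% and 2.52% in the first 50 kb and 3.52% and 3.26% from 250 to 300 kb.

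**Figure D4:**
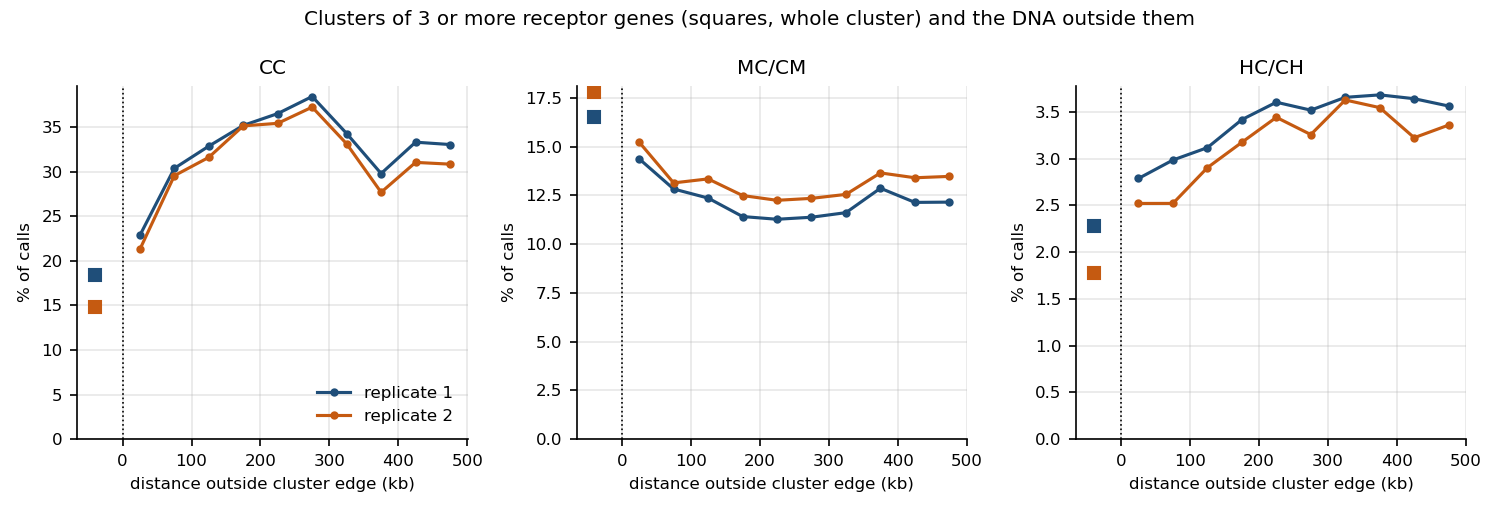
Levels of CC, MC/CM and HC/CH (y axes, percent of calls) in clusters of 3 or more receptor genes (squares, whole cluster) and in 50-kb bins outside their edges (lines, distance in kb on the x axis), for replicate 1 (blue) and replicate 2 (orange). CC was 18.4% and 14.9% inside and 22.9% and 21.3% in the first bin outside.

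Of the 137 clusters, 71 hold a single gene and 5 hold 10 or more. Vmn1r42 to Vmn1r54 on chromosome 6, with 13 genes, had 62.1% and 67.9% MM, 17.2% and 18.97% MC/CM and 2.81% and 2.17% HC/CH. Both large clusters of chromosome 13 were similar, with MM of 61.3% and 66.3% in Vmn1r191 to Vmn1r200 and of 61.4% and 69.4% in Vmn1r213 to Vmn1r223. Less methylated were Vmn1r4 to Vmn1r15 on chromosome 6, with CC of 27.2% and 22.3%, and Vmn1r167 to Vmn1r181 on chromosome 7, with CC of 26.9% and 22.8%. The latter, with 15 genes the largest cluster, includes Vmn1r175. Among the 29 clusters of 3 or more genes with at least 100 calls in each replicate, HC/CH ranged from 1.56% to 3.69% in replicate 1 and from 0.559% to 3.56% in replicate 2. MC/CM ranged from 13.2% to 19.1% and from 14.04% to 20.7%. Several clusters of chromosome 7 had hardly any covered sites, among them 3 neighbouring clusters. Vmn1r112 to Vmn1r118, Vmn1r119 to Vmn1r123 and Vmn1r124 to Vmn1r129 have a repeated window at 73.8%, 70.7% and 72.6% of sites, and 1.32%, 0.359% and 0% of their sites were covered in replicate 1. For the last, 0 of 638 sites were covered in either replicate. Whether the filters of the authors removed sites in these clusters was not tested.

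The olfactory receptor genes, the larger family of chemoreceptors of the main olfactory epithelium, had levels close to those of the vomeronasal receptor genes. Their MM was 58.5% and 63.7%, MC/CM 16.4% and 17.5%, HC/CH 2.60% and 1.97% and HM/MH 3.39% and 1.51%. Over the 9 and 8 autosomes with both families, no quantity passed the exact permutation test after adjustment. The difference in MC/CM was 0.0738 and 1.21 points and that in HC/CH was -0.146 and -0.0448 points, and without chromosome 1 the latter was -0.697 and -0.691 points. The covered share was 72.8% and 27.5% in olfactory receptor genes, and averaged over autosomes the vomeronasal receptor genes differed from it by -10.305 and -7.28 points (exact permutation test, adjusted p = 0.383 in both).

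Vmn1r and Vmn2r genes had similar levels. MM was 57.5% and 62.7% in Vmn1r genes and 58.2% and 63.7% in Vmn2r genes, MC/CM was 17.4% and 18.6% against 17.1% and 18.2%, and HC/CH was 2.33% and 1.94% against 2.04% and 1.47%. Only 3 autosomes hold enough calls of both, so the smallest p the exact test allows is 0.25. Coverage was lower for Vmn2r genes, with 50.6% and 17.8% of sites against 66.0% and 23.8%. Within Vmn2r genes, exons had HC/CH of 2.24% and 1.67% and introns 1.96% and 1.38%, and the difference over autosomes did not pass (0.460 and 0.303 points, exact permutation test, adjusted p = 0.219 and 0.375). Hemimethylation showed no preference for a strand that held in both families. In Vmn1r genes, mC on the coding strand only took 8.81% and 9.49% of calls and mC on the other strand only 8.56% and 9.09%, and in Vmn2r genes these were 8.42% and 9.14% against 8.66% and 9.02%. HC/CH with hmC on the coding strand took 1.06% and 0.884% in Vmn1r genes and 1.02% and 0.767% in Vmn2r genes, against 1.26% and 1.07%, and 1.02% and 0.705%, with hmC on the other strand. These strand values are descriptions without a test.

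At gene starts, CC was lower in the receptor families than in other protein-coding genes, whose promoters hold more CpG sites (a median of 15 against 1). The bins pool calls over genes, and CpG-poor starts of other genes were not set apart. In the first 1 kb after the start (GENCODE gene start), CC was 27.8% and 23.3% in Vmn1r genes and 25.8% and 20.8% in Vmn2r genes, against 82.4% and 80.6% in other protein-coding genes and 20.7% and 16.6% in olfactory receptor genes. MM in that bin was 49.7% and 57.2% in Vmn1r genes and 51.2% and 58.6% in Vmn2r genes. In the bin from 5 to 4 kb before the start, CC was 15.2% and 12.97% in Vmn1r genes and 16.1% and 14.2% in Vmn2r genes. CC was therefore higher near the start than upstream in both families and both replicates, a difference that was not tested. From 1 to 2 kb after the start, CC was 26.8% and 24.3% in Vmn2r genes and 20.5% and 15.2% in Vmn1r genes, and from 2 to 3 kb it was 26.1% and 23.2%, and 20.6% and 16.1%. This difference between the families was not tested.

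**Figure D5:**
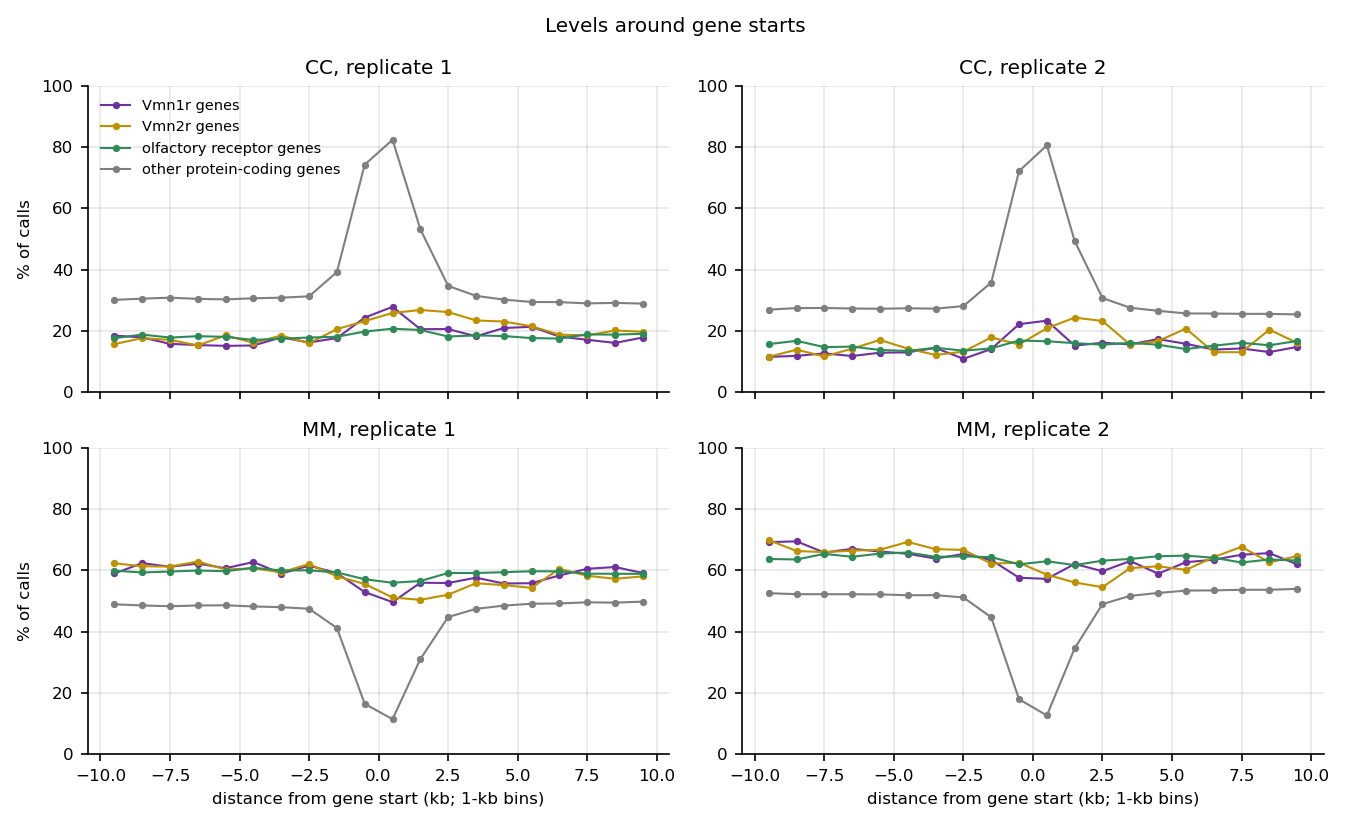
CC (top) and MM (bottom) in percent of calls (y axes) in 1-kb bins from 10 kb before to 10 kb after gene starts (x axes), for replicate 1 (left) and replicate 2 (right), with a line for each family. Other protein-coding genes peak at 82.4% CC in the first bin after the start in replicate 1, and Vmn1r and Vmn2r genes reach 27.8% and 25.8% there.

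Of 25 other genes of the vomeronasal pathway, 11 had enough calls to be placed against all protein-coding genes. CC was higher in 5 of them and lower in 2, MM higher in 3 and lower in 5, MC/CM higher in 2 and lower in 2, HC/CH higher in 2 and lower in 4, and HM/MH higher in 0 and lower in 3. Among all genes tested, 44.0% were higher and 29.3% lower in CC, 23.8% higher and 42.0% lower in MM, 11.7% higher and 28.2% lower in MC/CM, 15.1% higher and 12.2% lower in HC/CH, and 4.48% higher and 5.40% lower in HM/MH. The cation channel gene Trpc2, needed for the response of vomeronasal neurons, had an HC/CH of 7.21% and 7.01% and was higher, as was the transcription factor gene Bcl11b with 5.47% and 5.14%. Gnai2, the alpha subunit that couples to V1R receptors, had 54.6% and 56.9% CC, and Gnao1, its counterpart for V2R receptors, had 14.4% and 10.7% CC and an MC/CM of 13.6% and 15.4%, which was higher. The gamma subunit gene Gng8 had 83.6% and 79.1% CC. The formyl peptide receptor gene Fpr3 had MC/CM of 15.4% and 17.7% and HC/CH of 2.86% and 1.82%, counted as higher and lower, as in many receptor genes. The calcium-activated chloride channel genes Ano1, with 3.86% and 2.73%, and Ano2, with 2.90% and 2.04%, were both lower in HC/CH. The other 14, which include the H2-M10 genes and the Fpr-rs genes, had fewer than 50 calls in at least 1 replicate.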

How the data were processed

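SCoTCH-seq libraries of 2 passages of E14 mouse embryonic stem cells were compared within each library, since there is 1 group. The authors filtered adapters, aligned read pairs with BSBolt to GRCm38, removed duplicates and kept sites with at least 5 calls outside blacklisted regions in each replicate. Sites with multiple calling errors were also removed. Per the labels, the submitters' processing notes name cutadapt 4.6, Picard 3.1.1 and mm10. The deposited files hold, per site and CpG state, the count of calls and a percentage, which the authors computed as the count over the depth of the site without correction by spike-ins. All levels were computed from the counts. Nothing in the files ties the passages to separate cultures beyond their labels.

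Receptor genes, olfactory receptor genes (symbol starting with Olfr, protein-coding) and other protein-coding genes came from GENCODE vM21. Repeated windows of 100 bases were searched on both strands of all 21 chromosomes with C read as T. Only identical windows counted as repeats, so a copy that differs at a single base was not counted, and no aligner was run. The assembly searched is of another mouse strain than the cells. Differences between classes were averaged over autosomes with at least 100 calls in both classes and tested by an exact permutation of their signs, two-sided, with a threshold of 0.05 on the adjusted p in both replicates. Genes with at least 50 calls in each replicate were placed by exact 95% intervals, which cover counting error only. Correction solved 9 linear equations with the call rates on synthetic duplexes. The named genes were the 5 highest and 5 lowest in MM, the 5 highest in HC/CH and in HM/MH, ranked on the less extreme replicate, the 5 with the most sites in both replicates, clusters of 10 or more genes and a list of 25 pathway genes. The 3 neighbouring clusters of chromosome 7 named for their low coverage were chosen after their values were seen. Members and lists were chosen with earlier results of these data known. Alternatives were another weighting of sites, a minimum of 10 calls, correction, sites in both replicates, windows that occur once, leaving out chromosome 7 or a replicate, intergenic DNA as comparator, coding exons, classes of CpG density, other gap limits, flanks, call minimums and window sizes. Python 3.11.15, numpy 2.4.6, pandas 2.3.3, scipy 1.17.1, numba 0.67.0 and matplotlib 3.10.9 were used, and the tests were checked on simulated data.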

Additional observations from a re-analysis of the deposited data

How the results depend on the processing

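Values are differences in percentage points, or in calls for depth, averaged over autosomes and over both replicates. No comparison between groups of samples was possible because there is 1 group, and the tests pair the classes within each autosome. Of the recomputed values for comparisons and counts, 335 kept their direction and side of the threshold or stayed within the spread between replicates, 20 were no longer called, 9 became called, 43 changed sign and 15 moved. The cause of these changes was not tested. The 20 all fall on MC/CM, HM/MH and mean depth against other protein-coding genes, the only differences called in both replicates. Most of the 335 belong to differences that were not called in the main setting. Leaving out an autosome also leaves fewer units to permute, while leaving out a replicate leaves the test in the other replicate as it was.

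For receptor genes against other protein-coding genes, MC/CM stayed higher in every alternative run. It was no longer called with the mean of per-site percentages (3.91), without chromosome 7 (3.91), with intergenic DNA as comparator (2.83) and at sites with 1 to 5 (1.16), 6 to 10 (1.25) and over 10 (0.934) CpG sites around them. HM/MH stayed lower but was not called with per-site percentages (-0.980), at least 10 calls (-1.004), correction (-0.966), without chromosome 7 (-0.937), against intergenic DNA (-0.683), in coding exons (-0.869) or in the classes of 1 to 5 (-0.627), 6 to 10 (-0.764) and over 10 (-0.619) CpG sites. Mean depth was not called at sites with at least 10 calls (0.774), without chromosome 7 (0.842), against intergenic DNA (0.710), in coding exons (1.54) and at 1 to 5 CpG sites (0.501), and was lower at over 10 (-0.452). HC/CH became called without chromosome 1 (-2.25) and at 6 to 10 CpG sites (-1.54). CC became called without chromosome 1 (-5.62) and in coding exons (-14.9), and changed sign against intergenic DNA (0.363) and at 1 to 5 (1.74) and 6 to 10 (3.32) CpG sites. MM changed sign there too (-1.48, -1.60 and -2.21). The covered share changed sign with at least 10 calls (2.15), windows that occur once (2.87), intergenic DNA (1.92) and coding exons (4.27), and became called at 6 to 10 CpG sites (-10.1). The alternatives without chromosome 1, without chromosome 13 for clusters against flanks, and those for the named genes were chosen after the data were seen, and chromosome 1 was chosen for its HC/CH level, so its removal gives no support to the differences that then pass.

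For gaps against genes, signs changed for mean depth with at least 10 calls (0.0177), for CC at sites in both replicates (-0.123) and with gaps under 100 kb (-1.59), for HM/MH with windows that occur once (-0.00392) and gaps under 20 kb (-0.220), and for MM with gaps under 20 kb (-0.442). The covered share became called with gaps under 100 kb (-14.1). Leaving out a replicate gave ranges of -0.560 to 0.957 for MM, -0.0796 to 0.0966 for HM/MH, -1.21 to 0.0318 for mean depth, -1.78 to -1.57 for MC/CM and -18.2 to -7.61 for the covered share. For clusters against flanks, the ranges were -0.708 to 3.81 for the covered share, -0.0266 to 0.400 for mean depth and -0.313 to 0.0691 for HM/MH, and flanks of 500 kb gave a covered share of -0.110. Without chromosome 13, CC was -7.73 and MM 6.22.

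Against olfactory receptor genes, CC (-0.195) and HM/MH (0.0965) changed sign with at least 10 calls, and CC (-0.681) and MM (0.611) without chromosome 1. HM/MH ranged from -0.196 to 0.0113 when a replicate was left out. For Vmn2r against Vmn1r genes, where no test can pass, CC moved to -3.22 with per-site percentages, -4.51 with at least 10 calls, -3.67 at sites in both replicates and -5.85 without chromosome 7. MM moved to 5.28 with at least 10 calls and 5.72 without chromosome 7, MC/CM to -0.974 with at least 10 calls and -0.159 with correction, and the covered share to -7.03 with windows that occur once. For exons against introns of Vmn2r genes, signs changed with per-site percentages (CC 0.0492, MM -0.317), with at least 10 calls (CC 3.29, MM -2.64, HM/MH -0.227, depth 0.124) and at sites in both replicates (CC 0.513, MM -1.19, MC/CM 0.0730, depth 0.289). Leaving out a replicate gave CC from -1.25 to 0.593, MM from -1.80 to 2.11, MC/CM from -1.56 to 0.814 and depth from -0.800 to 0.0733.

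The number of receptor genes with higher CC moved to 8 with at least 100 calls and to 10 against the median over genes, and against that median 4 were lower in MM and 7 in HM/MH. Sites with windows of 50 bases that occur once were covered more than those with repeated windows by 60.1 points in replicate 1 and 26.0 in replicate 2. Of the levels of named genes, 9 of 15 moved by more than the spread between replicates with at least 10 calls, 10 of 25 with correction and 4 of 25 at sites in both replicates. A mean over 2 replicates cannot move by more than their spread when a replicate is left out, so that alternative says nothing about the stability of values without a test. The depth of replicate 2 limits HC/CH and HM/MH in single genes to a few calls.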

Other observations

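The families also hold many pseudogenes, which lie outside the protein-coding members. GENCODE vM21 lists 231 receptor pseudogenes on the autosomes with 6568 CpG sites, of which 4.10% fall in the gaps. Of these sites, 36.6% were covered in replicate 1 and 12.5% in replicate 2, with a mean depth of 11.9 and 6.50 calls. MM took 58.2% and 64.1% of calls in the pseudogenes, CC 19.6% and 15.5%, MC/CM 16.6% and 17.6%, HC/CH 2.09% and 1.76% and HM/MH 3.09% and 1.03%. In the protein-coding receptor genes, MM was 58.0% and 63.3%, MC/CM 17.2% and 18.3% and HC/CH 2.14% and 1.63%. The differences between the means of pseudogenes and genes in these 3 levels were smaller than the SD between the replicates of the receptor genes. Both classes come from the same libraries and share that spread. Within each replicate MM was higher and MC/CM lower in the pseudogenes, while HC/CH was lower in replicate 1 and higher in replicate 2. These differences were not tested.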
